A study of Mus musculus with 4 samples.

Results

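The 10 genes described here encode inhibitory checkpoint receptors of T cells (Ctla4, Pdcd1, Lag3, Havcr2 and Tigit), the ligands of PD-1 (Cd274 and Pdcd1lg2), a ligand of TIM-3 (Lgals9) and the costimulatory receptors Cd28 and Icos. They were taken by name from the gene symbols of the array's annotation, out of 19752 genes that had at least 1 row to themselves, and each of the 10 had exactly 1 row and none shared with another gene. All cells were CD4+ T cells from the spleen of male C57BL/6 mice aged 6 weeks, enriched by negative selection and labelled as activated, with CD3/28 beads for 48 h in the study's design. The groups were untreated baseline cells (2 arrays), cells given interferon alpha (IFNa, a type I interferon) at 100 U/ml for 2 h (1 array) and cells given the same for 8 h (1 array). Nothing in the labels says whether separate mice or cultures gave the baseline arrays. The p-values therefore reflect only how far those 2 arrays lie apart, for the gene and, with more weight, over all genes tested. This may be technical spread, and each IFNa array was assumed to vary like the baseline arrays. Untreated cells kept for 2 h or 8 h were not analysed here. The effect of IFNa and that of further culture cannot be told apart, and the sample preparation note of the IFNa arrays also mentions JAK inhibitors as present or absent.

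Checkpoint receptors restrain T cells that have already been activated. CTLA-4 competes with CD28 for the ligands CD80 and CD86, PD-1 recruits phosphatases that blunt signalling from the antigen receptor and CD28, and LAG-3, TIM-3 and TIGIT act through further ligands, while CD28 and ICOS amplify the activating signal. PD-L1 (Cd274) and PD-L2 (Pdcd1lg2) are best known on antigen-presenting and tumour cells, but activated T cells also make them, and interferons are textbook inducers of PD-L1.

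Cd274 and Pdcd1lg2 are direct neighbours on chromosome 19, and Cd28, Ctla4 and Icos follow each other on chromosome 1 (RefSeq order of protein-coding genes, GRCm38.p6). The RefSeq promoter table held 7 of the 10 genes (Lag3, Cd28 and Icos were not among them), each as a window from 250 bases before to 50 after the start site. The windows shown are those of the PD-1 ligands, of the member highest at 8 h (Lgals9) and of the 1 receptor with a match to the pattern GAAANNGAA (Ctla4). Capitals mark matches, on either strand, to the 9-letter pattern GAAANNGAA, a short form of the interferon-stimulated response element. The coordinates are chr19:29367188-29367487 on the + strand for Cd274, chr19:29410669-29410968 on the + strand for Pdcd1lg2, chr11:78984875-78985174 on the - strand for Lgals9 and chr1:60908775-60909074 on the + strand for Ctla4 (GRCm38.p6, each printed 5′ to 3′ along the gene).
Cd274: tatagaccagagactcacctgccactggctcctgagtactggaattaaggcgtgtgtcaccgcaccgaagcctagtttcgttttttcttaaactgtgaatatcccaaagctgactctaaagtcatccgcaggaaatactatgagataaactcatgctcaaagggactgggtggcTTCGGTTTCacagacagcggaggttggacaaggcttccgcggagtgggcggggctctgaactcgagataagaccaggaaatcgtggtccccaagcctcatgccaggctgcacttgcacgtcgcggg
Pdcd1lg2: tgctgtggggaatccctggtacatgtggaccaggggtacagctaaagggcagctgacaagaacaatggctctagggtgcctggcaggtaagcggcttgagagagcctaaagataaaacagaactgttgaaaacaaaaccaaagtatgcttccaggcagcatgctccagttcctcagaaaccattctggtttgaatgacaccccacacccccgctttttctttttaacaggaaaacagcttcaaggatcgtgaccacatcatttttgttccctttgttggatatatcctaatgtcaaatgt
Lgals9: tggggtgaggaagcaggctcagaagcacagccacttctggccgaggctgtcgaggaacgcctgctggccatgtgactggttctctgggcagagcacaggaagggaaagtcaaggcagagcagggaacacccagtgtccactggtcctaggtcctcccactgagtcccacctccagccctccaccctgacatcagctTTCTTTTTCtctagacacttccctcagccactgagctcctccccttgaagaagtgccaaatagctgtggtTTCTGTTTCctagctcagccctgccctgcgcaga
Ctla4: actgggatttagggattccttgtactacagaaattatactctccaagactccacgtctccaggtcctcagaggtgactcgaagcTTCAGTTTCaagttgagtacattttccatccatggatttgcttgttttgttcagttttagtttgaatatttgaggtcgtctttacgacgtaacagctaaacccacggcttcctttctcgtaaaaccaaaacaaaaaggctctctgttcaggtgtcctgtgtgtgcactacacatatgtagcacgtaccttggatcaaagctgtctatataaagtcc

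The Cd274 window held 1 such match, TTCGGTTTC, starting 76 bases before the start site. The Pdcd1lg2 window held none. Lgals9 held 2, TTCTTTTTC starting 54 bases before the start site and TTCTGTTTC starting at base 17 after it, and Ctla4 held TTCAGTTTC at 166 bases before it. In all, 3 of the 7 windows held the pattern, which was found in 8.56% of 32851 promoter windows. The pattern TTCNNNGAA, a short form of the gamma-activated site, was in none of the 7 (8.3% of all windows), and the AP-1 pattern TGANTCA was in the Havcr2 window alone (7.81%). None of these matches overlapped another. A match describes the letters of this window and is no evidence of binding.

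In the deposited values the PD-1 ligands lay further from baseline than any receptor, above it at 2 h and below it at 8 h. After quantile normalization this did not hold for Cd274 at 8 h (log2 difference -0.25, beside 0.28 for Lag3). On the linear scale of the deposited intensities, Cd274 measured 549 and 700.4 on the baseline arrays, then 1406 (2 h) and 431 (8 h). Pdcd1lg2 measured 149 and 164 at baseline, then 345 (2 h) and 103 (8 h). For both genes the 2 h array lay above both baseline arrays and the 8 h array below both. RNA was measured in bulk, so fewer cells of a type and less RNA per cell cannot be told apart.

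The comparison of 2 h with baseline asks which genes are higher early after IFNa. Pdcd1lg2 rose 2.21-fold (log2 difference 1.14, SE 0.21, 95% interval 0.67 to 1.61, adjusted p = 0.0439). Cd274 stood 2.27-fold above the baseline mean (1.18, SE 0.23, interval 0.66 to 1.70), but its baseline arrays lay further apart (9.28 ± 0.25, SD, n = 2, on the log2 scale, against 7.29 ± 0.10 for Pdcd1lg2) and it did not pass (adjusted p = 0.0567). Of the 9 members tested, 1 was called higher and none lower (limma, adjusted p under 0.05; 4 members had an unadjusted p under 0.05), against 1.09% of all 10699 genes tested called higher and 0.00935% called lower. Both PD-1 ligands were at least 2-fold higher, which held for 1.77% of all genes tested. Only 114 genes of the 10699 had a larger difference than Cd274 and 130 a larger one than Pdcd1lg2.

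The Pdcd1lg2 call depends on the filter. This gene lay under the median of all array rows on both baseline arrays (percentiles 42.7 and 47.5) and at 8 h (29.4), and entered the test only through the 2 h array (61.2), so it had to differ to be tested. With no filter on dim genes its adjusted p was 0.0964, and with the stricter filter at the 60th percentile 0.0615. After quantile normalization both ligands were called (adjusted p = 0.000915 for Cd274 and 0.000865 for Pdcd1lg2), as they were with each array centred on its median (0.00102 and 0.00165). An exact permutation test of 1 array against 2 cannot give a p under 0.333, so no gene could pass such a test here.

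**Figure D1:**
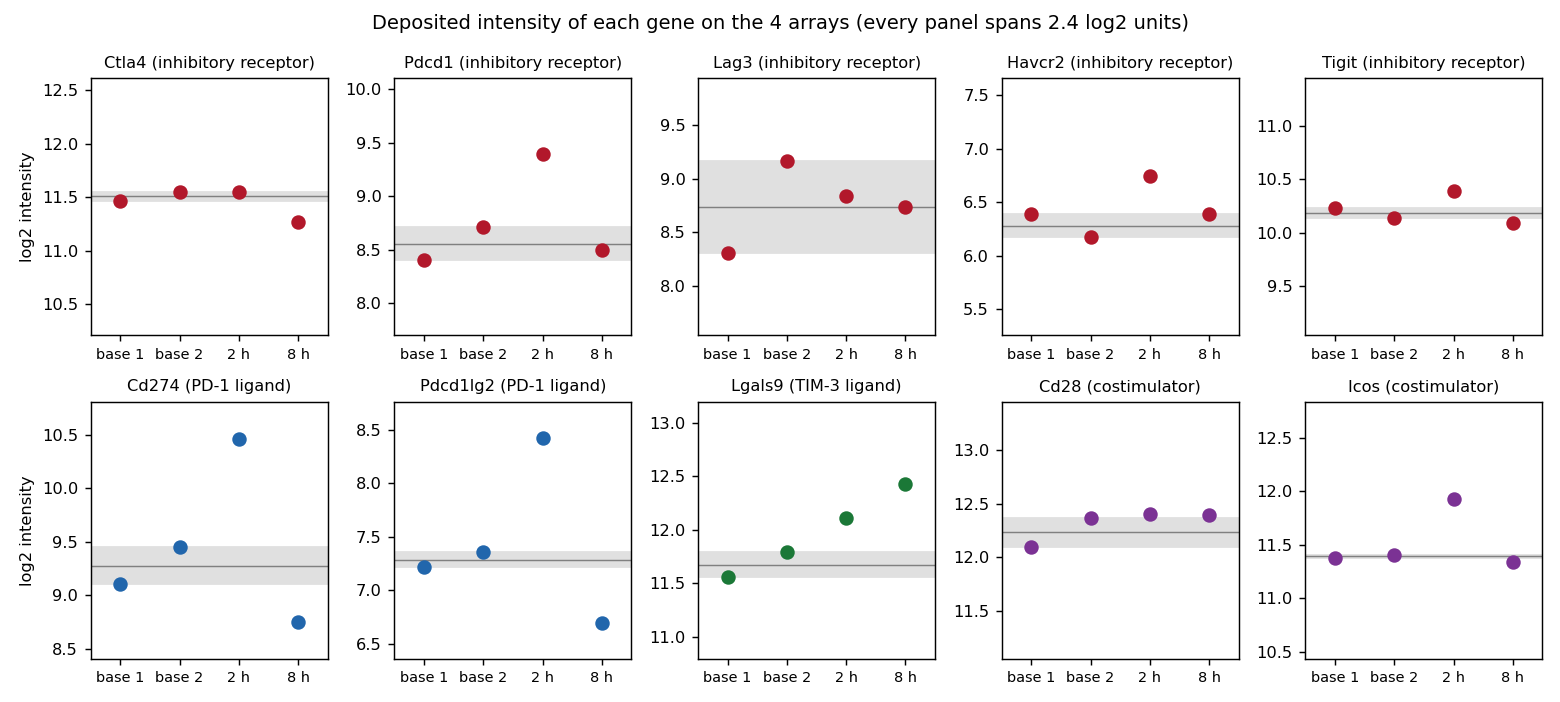
Log2 of the deposited intensity (vertical axis) of each of the 10 genes on the 4 arrays (horizontal axis: baseline 1, baseline 2, IFNa 2 h, IFNa 8 h). Points are arrays, the grey band spans the baseline arrays and the line is their mean. Cd274 and Pdcd1lg2 lie above the band at 2 h and below it at 8 h, Lgals9 lies above it at both times, and both IFNa values of Lag3 lie inside it.

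Among the inhibitory receptors none passed the test at 2 h. Pdcd1, which encodes PD-1 itself, came nearest. It measured 339 and 419 at baseline, then 676 (2 h) and 362 (8 h), so the 2 h array lay above both baseline arrays and the 8 h array between them. Its 2 h difference was 0.84 (SE 0.22, interval 0.34 to 1.35, adjusted p = 0.17), a fold of 1.79. The call changed with the scaling of the arrays, since Pdcd1 passed after quantile normalization (0.71, adjusted p = 0.0386) and with centred arrays (0.94, adjusted p = 0.0453).

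Ctla4, the receptor that competes for the ligands of CD28, measured 2831 and 3006 at baseline, then 2995 (2 h) and 2470.5 (8 h). The 2 h array lay between the baseline arrays (0.04, interval -0.42 to 0.50, adjusted p = 0.952) and the 8 h array below both (-0.24, interval -0.70 to 0.22, adjusted p = 0.487). Tigit, a receptor for CD155, measured 1206 and 1126 at baseline, then 1345 (2 h) and 1094 (8 h). Its IFNa arrays lay just outside the baseline arrays on opposite sides, with differences of 0.21 (interval -0.26 to 0.67, adjusted p = 0.697) and -0.09 (interval -0.56 to 0.37, adjusted p = 0.811). Neither gene passed at either time, and after quantile normalization Ctla4 changed sign at 2 h (-0.082) and Tigit at 8 h (0.14).

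Lag3, an inhibitory receptor that binds MHC class II, differed more between the baseline arrays than between any IFNa array and the baseline mean. It measured 317 and 576 at baseline, then 458 (2 h) and 427 (8 h), and baseline 2 exceeded baseline 1 by 0.86 on the log2 scale. Both IFNa arrays lay between them, and the differences of 0.10 at 2 h (interval -0.64 to 0.84, adjusted p = 0.921) and 0.00 at 8 h (interval -0.74 to 0.74, adjusted p = 0.998) have the widest intervals of the 9 genes. Against baseline 1 alone the 2 h difference was 0.53, and against baseline 2 alone -0.33. Havcr2, which encodes TIM-3, lay under the median of all rows on every array (percentiles 23.9 to 38.1) and was not tested. It measured 83.9 and 72.1 at baseline, then 107 (2 h) and 84.0 (8 h), with differences of 0.46 and 0.11. Fitted without the filter its adjusted p was 0.7 at 2 h and 0.819 at 8 h.

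Lgals9 had the largest difference above baseline of the 10 genes at 8 h, and unlike those of the PD-1 ligands its 8 h value lay above its 2 h value. This gene encodes galectin-9, a secreted lectin and ligand of TIM-3 that is known as an interferon-inducible gene. It measured 3009 and 3545 at baseline, then 4421 (2 h) and 5527 (8 h), and both IFNa arrays lay above both baseline arrays. The difference was 0.44 at 2 h (SE 0.21, interval -0.05 to 0.92, adjusted p = 0.46) and 0.76 at 8 h (SE 0.21, interval 0.27 to 1.25, adjusted p = 0.0866), a fold of 1.69. Of all genes tested, 117 had a larger difference at 8 h. It was called at 8 h in only 2 of the 8 settings fitted, and with centred arrays its difference was 0.68. Lgals9 passed at 8 h after quantile normalization (0.81, adjusted p = 0.00586) and with an intensity trend in the prior (adjusted p = 0.045).

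Neither costimulator passed at 2 h or 8 h. Icos, the inducible costimulator, measured 2664 and 2702 at baseline, then 3894 (2 h) and 2591 (8 h). Its 2 h array stood 1.45-fold above baseline arrays that hardly differed (0.54, SE 0.20, interval 0.08 to 1.00, adjusted p = 0.349), and its 8 h array just under both (-0.05, adjusted p = 0.903). Cd28, whose protein the activating beads engage, measured 4393 and 5302 at baseline, then 5412 (2 h) and 5389 (8 h). Both IFNa arrays lay close to the higher baseline array, with differences of 0.17 (interval -0.33 to 0.66, adjusted p = 0.772) and 0.16 (interval -0.34 to 0.65, adjusted p = 0.682).

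The comparison of 8 h with baseline asks what is changed later, and uses the same baseline arrays as the 2 h comparison. No member passed in either direction (limma, 0 of 9 called, 3 with an unadjusted p under 0.05), against 0.654% of all genes tested called higher and 3.35% called lower. The median of all genes tested was -0.16 at 8 h and 0.06 at 2 h, and quantile normalization brought these to 0.00 and -0.01. With no filter on dim genes the medians were 0.04 and -0.07, so this shift is one of the brighter genes that were tested. Small negative values of tested genes at 8 h lie near it. Cd274 (-0.52, SE 0.23, interval -1.04 to -0.01, adjusted p = 0.199) and Pdcd1lg2 (-0.60, SE 0.21, interval -1.07 to -0.13, adjusted p = 0.134) lay lowest of the 10 genes. Pdcd1lg2 passed after quantile normalization (-0.80, adjusted p = 0.00748), while Cd274 moved to -0.25 there (adjusted p = 0.478).

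The direct comparison of 8 h with 2 h asks whether the early level was kept. Both PD-1 ligands fell, Cd274 with a log2 difference of -1.70 (SE 0.26, interval -2.30 to -1.11, adjusted p = 0.013) and Pdcd1lg2 with one of -1.74 (SE 0.24, interval -2.28 to -1.20, adjusted p = 0.00963), which are 3.26-fold and 3.34-fold. These were the 2 calls among the 9 members tested, against 10.8% of all genes called lower and 1.46% called higher. They were also the 2 members at least 2-fold lower, a size that 8.65% of all genes reached. Of the 10699 genes, 106 fell further than Cd274 and 97 further than Pdcd1lg2. Both calls were kept in all 8 settings fitted, with adjusted p of at most 0.0281 for Cd274 and 0.0219 for Pdcd1lg2. These falls compare 1 array with 1, and their error comes from the baseline arrays alone. In the main fit Pdcd1lg2 entered the test only through the 2 h array, the same array from which its fall is measured. After quantile normalization the differences were -1.31 for Cd274 and -1.87 for Pdcd1lg2.

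The other members were lower at 8 h than at 2 h by less, or not at all. Pdcd1 stood at -0.90 (SE 0.25, interval -1.48 to -0.32, adjusted p = 0.052), or 1.87-fold lower, and passed with centred arrays (-1.08, adjusted p = 0.0112) but not after quantile normalization (-0.53, adjusted p = 0.107). Icos stood at -0.59 (adjusted p = 0.111), Tigit at -0.30 (adjusted p = 0.382), Ctla4 at -0.28 (adjusted p = 0.413) and Lag3 at -0.10 (adjusted p = 0.873), and Cd28 at -0.01 (adjusted p = 0.989). Lgals9 was the 1 member with a higher value at 8 h (0.32, interval -0.24 to 0.88, adjusted p = 0.368).

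Scaling changed how many of all genes were called and in which direction. At 2 h the model called 117 genes higher and 1 lower, and 332 and 109 after quantile normalization. At 8 h the counts were 70 and 358, and 663 and 900. For 8 h against 2 h they were 156 and 1155, or 990 and 1316 after quantile normalization and 72 and 2315 with centred arrays.

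**Figure D2:**
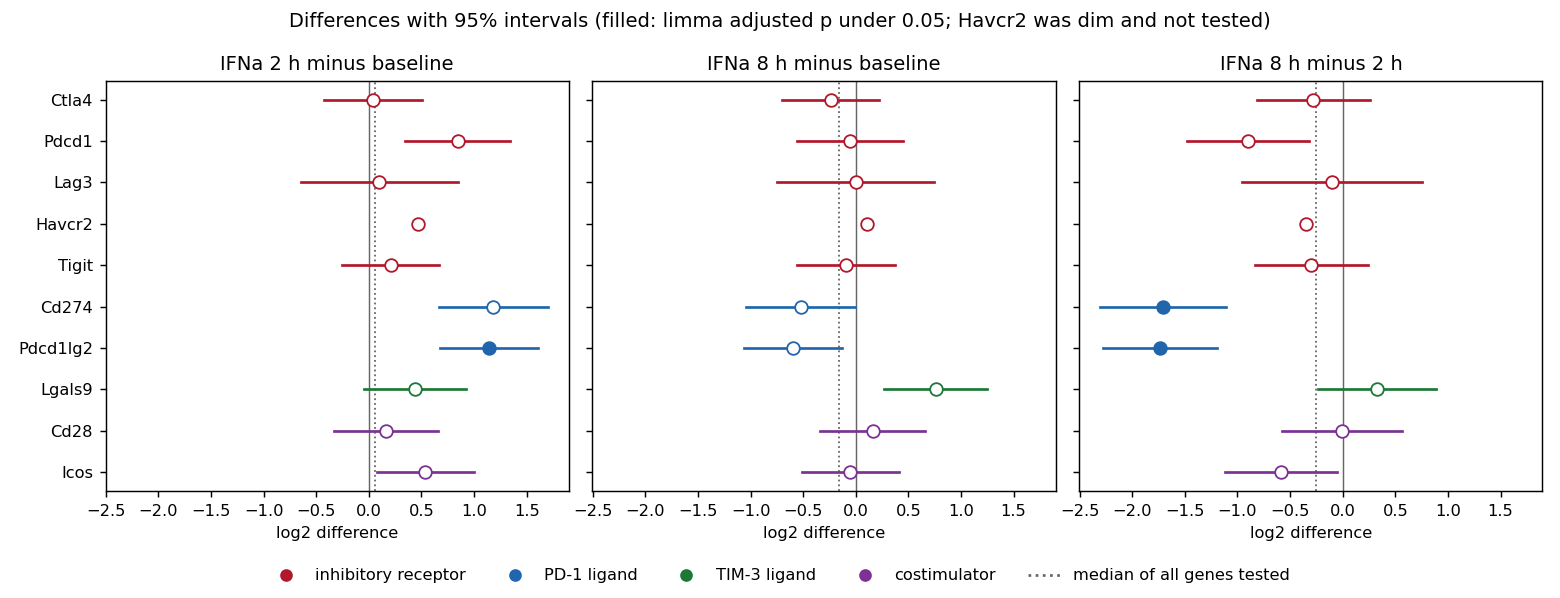
Log2 difference (horizontal axis) of each gene in the 3 comparisons, with the model's 95% interval before any adjustment for multiple testing. Filled points passed at an adjusted p under 0.05 and the dotted line is the median of all genes tested. Pdcd1lg2 is filled at 2 h against baseline, none at 8 h against baseline, and Cd274 and Pdcd1lg2 at 8 h against 2 h, where they stand at -1.70 and -1.74.

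Inhibitory receptors and PD-1 ligands were set side by side as differences from the baseline mean. At 2 h the ligands stood at 1.18 and 1.14 and the 5 receptors between 0.04 and 0.84, so the groups did not overlap. At 8 h the ligands stood at -0.52 and -0.60 and the receptors between -0.24 and 0.11, again without overlap and with the order turned. Of all 10699 genes tested, 281 lay above the highest receptor (Pdcd1) at 2 h and 4468 below the lowest (Ctla4) at 8 h. A place below every receptor at 8 h was therefore common. The mean of the ligands exceeded that of the receptors by 0.83 at 2 h and was lower at 8 h (gap -0.50). Between the baseline arrays the gap ran from -0.03 to 0.03. Leaving out the dim Havcr2 gave gaps of 0.86 and -0.46. With 2 genes in one group and 5 in the other, from single arrays, the gap is a description and has no p, and no test of Cd274 or Pdcd1lg2 against Pdcd1 was made. All 5 receptors lay above 0 at 2 h, Pdcd1 highest. The median of all genes tested was also above 0 there (0.06), and Ctla4 (0.04) lay under it.

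**Figure D3:**
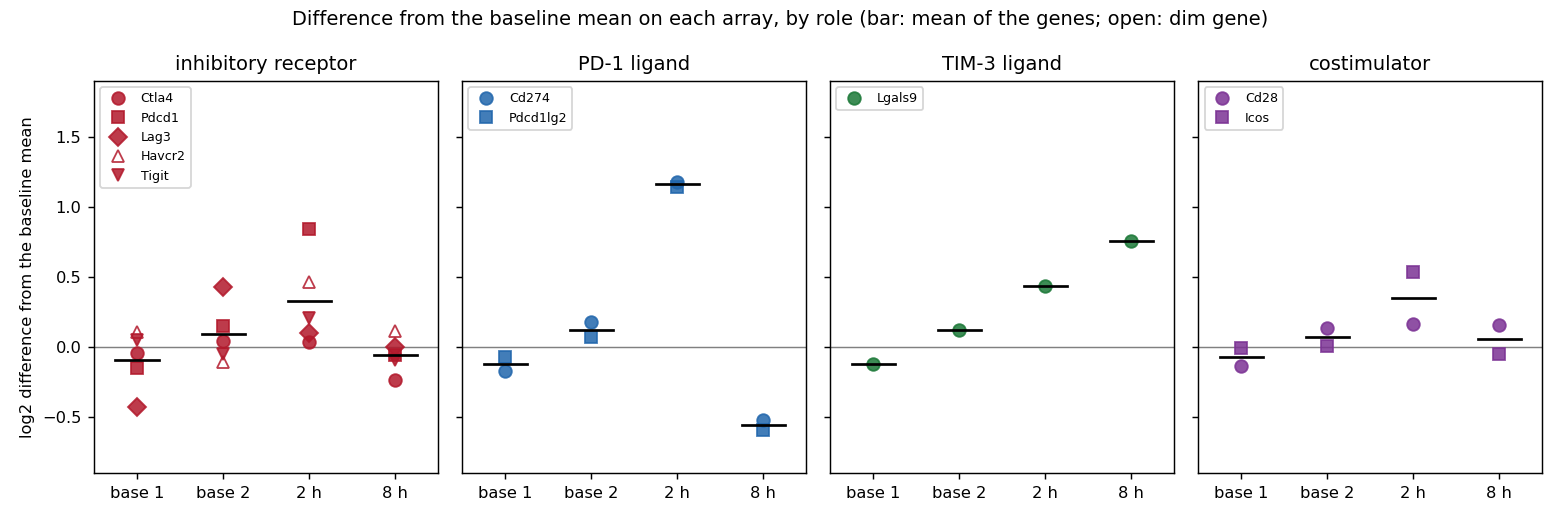
Log2 difference from the baseline mean (vertical axis) on each array (horizontal axis), in 4 panels by role. Each symbol is a gene, the bar is the mean of the genes and the open symbol is the dim Havcr2. The ligand bars stand at 1.16 at 2 h and -0.56 at 8 h, and the receptor bars at 0.33 and -0.06.

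At 2 h, 8 of the 10 members lay above both baseline arrays, all but Ctla4 and Lag3, a position held by 44.5% of all genes tested. At 8 h, 5 members lay below both (Ctla4, Tigit, Cd274, Pdcd1lg2 and Icos) and 3 above (Havcr2, Lgals9 and Cd28), against 55.9% and 24.4% of all genes. These positions depend on the scaling, since after quantile normalization the 8 h differences of Pdcd1 (0.18), Lag3 (0.28), Tigit (0.14) and Icos (0.049) were positive and that of Havcr2 (-0.10) negative.

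The genes next to the PD-1 ligands were less far from baseline at 2 h. Plgrkt, before Cd274, stood at 0.29 (SE 0.21, adjusted p = 0.597), and Ric1, after Pdcd1lg2, at 0.22 (SE 0.21, adjusted p = 0.682). Between 2 h and 8 h both fell, Plgrkt by 0.97 (SE 0.24, adjusted p = 0.0394) and Ric1 by 1.00 (SE 0.24, adjusted p = 0.0359). At 8 h they stood further below baseline than the PD-1 ligands, Plgrkt at -0.68 (SE 0.21, adjusted p = 0.107) and Ric1 at -0.78 (SE 0.21, adjusted p = 0.0743), and neither passed. Falls between 2 h and 8 h were common, with 10.8% of all genes tested called lower and a median difference of -0.25. On chromosome 1, Cd28, Ctla4 and Icos stood at 0.17, 0.04 and 0.54 at 2 h, none of them called.

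Profiles over the 4 arrays, centred on the baseline mean, were compared by Euclidean distance. The 3 genes most like Cd274 were Mapkapk3 (distance 0.04 log2 units), Ndufa1 (0.08) and Prnp (0.13), and Pdcd1lg2 ranked 8th (0.17). Those most like Pdcd1lg2 were Zhx2 (0.11), Glce (0.11) and Phlpp1 (0.15), and Cd274 ranked 4th (0.17). Pdcd1 ranked 237th for Cd274 and 355th for Pdcd1lg2. With 4 arrays such a likeness describes these libraries only.

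Further coreceptors and their ligands were followed in a list of 35 genes, of which 24 were tested. At 2 h, 2 rose (8.33%, beside 1.09% of all genes) and none fell (0.00935% of all genes), with a list median of -0.02 against 0.06 over all genes. Cd86, a ligand of CD28 and CTLA-4, rose 3.13-fold, from log2 intensities of 6.69 and 6.77 at baseline to 8.37 (1.65, SE 0.20, adjusted p = 0.00726), and stood at 7.25 at 8 h. Like Pdcd1lg2 it lay under the array median at baseline and at 8 h and entered the test only through the 2 h array. With no filter on dim genes its adjusted p at 2 h was 0.0162. Nt5e (CD73), an enzyme that makes adenosine, rose 2.62-fold (1.39, SE 0.20, adjusted p = 0.0156). Cd80, the other ligand of CD28 and CTLA-4, did not share this early height, at -0.02 at 2 h (adjusted p = 0.983) and 0.67 at 8 h (adjusted p = 0.108).

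At 8 h none of these 24 genes passed against baseline, beside 0.654% of all genes called higher and 3.35% called lower. The largest differences were those of Ceacam1, an inhibitory adhesion receptor (0.90, SE 0.25, adjusted p = 0.0814), and Cd200, the ligand of the CD200 receptor (-0.85, SE 0.20, adjusted p = 0.056). For 8 h against 2 h, 3 rose (12.5%, beside 1.46% of all genes) and 2 fell (8.33%, beside 10.8% of all genes). Nt5e (-1.62, SE 0.23, adjusted p = 0.0109) and Cd86 (-1.12, SE 0.23, adjusted p = 0.026) fell, while Ceacam1 (1.45, SE 0.29, adjusted p = 0.0221) and Cd226, the activating receptor that shares its ligand with TIGIT (1.08, SE 0.23, adjusted p = 0.0291), rose. Cd276 (B7-H3) was the other gene that rose (0.86, SE 0.23, adjusted p = 0.0473), and it entered the test only through the 8 h array. With no filter Cd86 (adjusted p = 0.0551), Cd226 (adjusted p = 0.0614) and Cd276 (adjusted p = 0.0919) did not pass this comparison.

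Of 30 genes for signalling and turnover of these receptors, 28 were tested. None passed at 2 h, beside 1.09% of all genes called higher and 0.00935% called lower. The largest difference there was that of Pik3r1, a regulatory subunit of PI3 kinase (0.77, SE 0.20, limma adjusted p = 0.172). It was followed by the adaptor Grap2 (0.49, SE 0.24, adjusted p = 0.458). At 8 h 1 fell (3.57%, beside 3.35% of all genes), Lrba, which protects CTLA-4 from lysosomal degradation (-0.96, SE 0.21, adjusted p = 0.044). For 8 h against 2 h 1 fell (3.57%, beside 10.8% of all genes), Ptpn11, which encodes the SHP-2 phosphatase recruited by PD-1 (-0.90, SE 0.24, adjusted p = 0.0492). With no filter on dim genes neither passed (adjusted p = 0.0956 for Lrba and 0.0945 for Ptpn11). The list medians were 0.20, -0.11 and -0.36 in these 3 comparisons, beside 0.06, -0.16 and -0.25 over all genes.

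Among 28 transcription factors known to act on such genes, 25 were tested. Their medians were 0.22, -0.04 and -0.47, beside 0.06, -0.16 and -0.25 over all genes. At 2 h 1 was called higher (4.0%, beside 1.09% of all genes) and none lower (0.00935% of all genes). At 8 h 1 was called higher (4.0%, beside 0.654% of all genes). Stat2, a transducer of the type I interferon receptor, was the 1 called at 2 h (1.42, SE 0.23, adjusted p = 0.0261; 4.0% of the list), and stood at 0.88 at 8 h (adjusted p = 0.0725). Its partner Irf9 passed at 8 h (0.99, SE 0.20, adjusted p = 0.0388) and stood at much the same value at 2 h (1.04, adjusted p = 0.0613). With no filter on dim genes Stat2 at 2 h (adjusted p = 0.0578) and Irf9 at 8 h (adjusted p = 0.0843) did not pass. At 8 h 3 factors fell (12%, beside 3.35% of all genes), namely Bhlhe40 (-1.71, SE 0.24, adjusted p = 0.0115), Irf4 (-1.51, SE 0.24, adjusted p = 0.0187) and Jun (-1.38, SE 0.23, adjusted p = 0.022). The same 3 factors fell between 2 h and 8 h (12%, beside 10.8% of all genes, a share near the background), with differences of -2.86 for Bhlhe40 (adjusted p = 0.00786), -1.69 for Jun (adjusted p = 0.0136) and -1.68 for Irf4 (adjusted p = 0.0151). Irf1, a known activator of the Cd274 promoter, stood at 0.23 at 2 h (adjusted p = 0.68) and -0.53 at 8 h (adjusted p = 0.174).

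**Figure D4:**
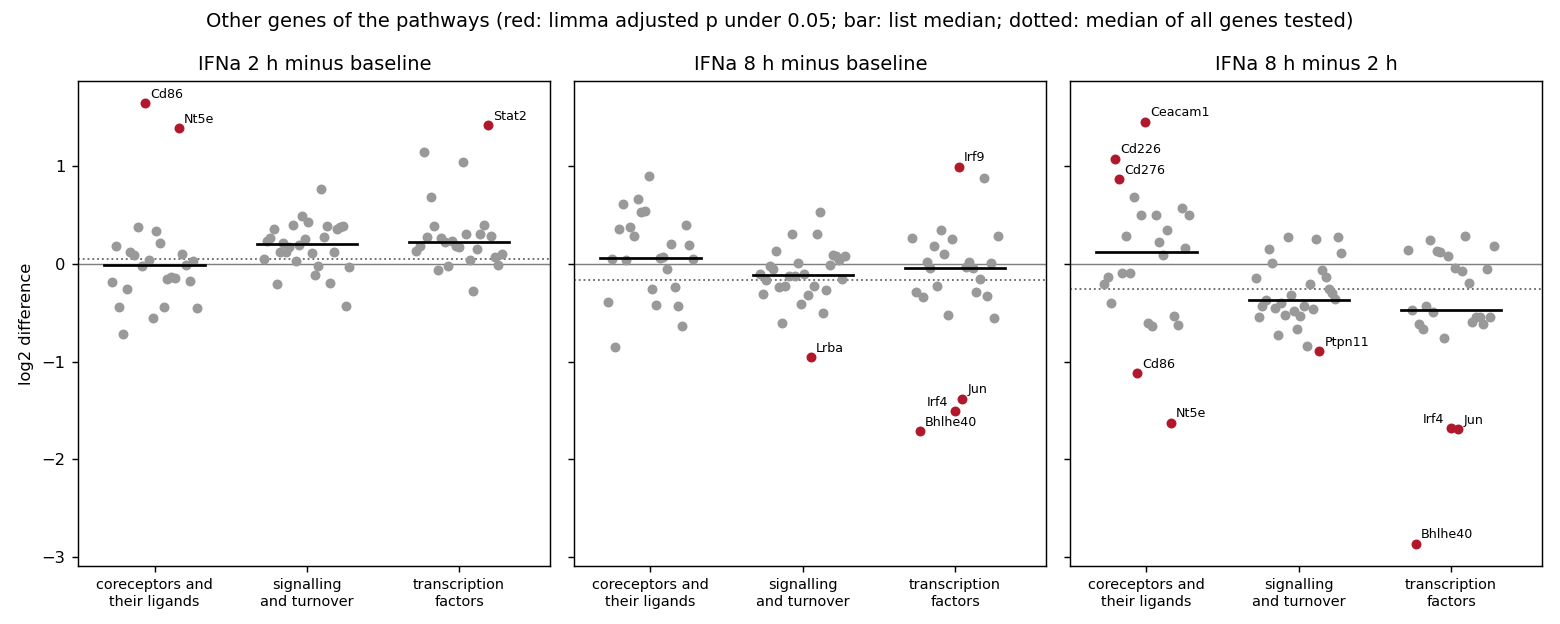
Log2 difference (vertical axis) of the tested genes of 3 lists (horizontal axis) in the 3 comparisons. Each point is a gene, red where limma's adjusted p was under 0.05, the bar is the list median and the dotted line the median of all genes tested. Cd86 and Nt5e are red at 2 h on the positive side and at 8 h against 2 h on the negative side.

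Since PD-1 ligands are also made by other cells, markers of these were read on the same arrays. All 6 T cell markers with a row of their own lay above the array's median on every array. Of 8 markers of macrophages, monocytes and dendritic cells only Lyz2 did. Their summed intensity ran through 1122 (baseline 1), 946 (baseline 2), 762 (2 h) and 1039 (8 h). The 7 dim ones all lay under their baseline mean at 2 h and over it at 8 h. The lower quartile of the array was also lowest at 2 h (66.8). This quartile was 81.8 and 70.1 on the baseline arrays, and 87.8 on the 8 h array. Lyz2 itself stood at -0.92 at 2 h (limma, adjusted p = 0.155). At 8 h Lyz2 stood at -0.46, under its baseline mean where the dim ones lay over theirs. Whether the sum reflects cell content was not tested. All 3 B cell markers lay above the median on every array, with baseline sums of 1913 and 1933, then 1875 (2 h) and 2469 (8 h, where Lgals9 was highest), and Ms4a1 (CD20) stood at 0.75 (adjusted p = 0.0882). The B cell markers Cd79a and Cd79b moved less at 8 h, at 0.17 and 0.18. The part of B cells in the 8 h values was not tested. Both regulatory T cell markers, of a subset rich in CTLA-4, lay above the median throughout (sums of 1178 and 1282 at baseline, then 1190.0 and 1358). Of CD8 T cell markers 1 or 2 of 2 did (sums 921 to 1191), of NK cell markers 1 of 4 (334 to 455), and of neutrophil markers at most 1 of 3 (306 to 340.2). Of the 28 markers 16 were tested and none of these passed in any of the 3 comparisons. The other 12 were dim on every array and not tested, namely 7 of 8 macrophage, monocyte and dendritic cell markers, 3 of 4 NK cell markers and 2 of 3 neutrophil markers. At 2 h 1.09% of all genes tested were called higher and 0.00935% lower, and at 8 h 0.654% and 3.35%. For 8 h against 2 h the shares were 1.46% and 10.8%. With 16 markers and such shares, none called cannot show whether cell content was stable.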

How the data were processed

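RNA of 4 samples was hybridised to Affymetrix Mouse Gene 1.0 ST arrays. The authors deposited linear intensities, and the submitters' processing notes name RMA and Affymetrix Power Tools. Their versions, and which arrays were processed together, are not given in the sources used here. Distributions differed between arrays (medians of 176 to 199, upper quartiles of 574 to 769), and their number limits the precision. RMA values of dim genes keep unspecific signal, which understates their folds.

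Log2 was taken with no pseudocount. Of 24922 rows, 21425 had 1 gene symbol, 1399 several and 2098 none. Genes were represented by their row of highest mean and tested when above the array's median on at least 1 array (10699 genes, 9053 put aside as dim). limma 3.58.1 in R 4.3.3 was fitted with 1 mean per group, empirical Bayes moderation (1 residual and 7.46 prior degrees of freedom, prior SD 0.175) and Benjamini-Hochberg adjustment over all genes tested, two-sided. The fit was tested on simulated data. Sequences are RefSeq's (GRCm38.p6).

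Members and lists were chosen with earlier results of these data known. Of each list, up to 4 called genes with the largest difference were named per comparison, or 2 where none was called, along with the 3 genes nearest in profile and the chromosomal neighbours of the PD-1 ligands. Cd80, Cd276, Irf1 and Ms4a1 fall outside this rule and were named after their values were seen. Alternatives were quantile normalization, centring on medians, other filters, the mean of a gene's rows, an intensity trend, a robust prior, an adjusted p under 0.1, a 2-fold rule and leaving out each baseline array. The fit of list genes with no filter was added after seeing the data.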

Additional observations from a re-analysis of the deposited data

Results flagged for a closer look

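For several genes the level at 8 h differed from that at 2 h in the test of that difference (limma, adjusted p under 0.05). Among the 10 genes these were Cd274 (-1.70, SE 0.26) and Pdcd1lg2 (-1.74, SE 0.24). Of the coreceptor list they were Nt5e (-1.62), Cd86 (-1.12), Ceacam1 (1.45), Cd226 (1.08) and Cd276 (0.86). Of the other lists they were Ptpn11 (-0.90), Bhlhe40 (-2.86), Jun (-1.69) and Irf4 (-1.68). The neighbours Plgrkt (-0.97) and Ric1 (-1.003) also differed, in a comparison that called 10.8% of all genes tested lower. So did the genes chosen for their likeness to the PD-1 ligands, for which this follows from the choice, namely Mapkapk3 (-1.70), Ndufa1 (-1.75), Prnp (-1.81), Zhx2 (-1.82), Glce (-1.62) and Phlpp1 (-1.57).

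Tigit and Icos lay above both baseline arrays at 2 h and below both at 8 h, with differences between the times of -0.30 (adjusted p = 0.382) and -0.59 (adjusted p = 0.111) that did not pass.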

How the results depend on the processing

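The number of the 10 genes called at 2 h was 1, and became 3 (with Cd274 and Pdcd1) after quantile normalization or with arrays centred on their medians, 2 (with Cd274) at an adjusted p under 0.1 or by a 2-fold rule with no test, also 2 by that rule without baseline replicate 1 or without baseline replicate 2, and 0 with no filter or the filter at the 60th percentile (4 with an unadjusted p under 0.05 in each). At 8 h it was 0, and became 2 after quantile normalization (Pdcd1lg2 and Lgals9) and 1 (Lgals9) with an intensity trend or at an adjusted p under 0.1. For 8 h against 2 h it was 2, and 2 or 3 in the alternatives. The gap between PD-1 ligands and receptors moved by more than its baseline SD at 8 h only after quantile normalization (-0.60). Of the genes' own differences 9 changed sign after quantile normalization, none of them called, and 4 on leaving out a baseline array. The first were Ctla4 at 2 h (-0.082), Pdcd1 (0.18), Lag3 (0.28), Havcr2 (-0.10), Tigit (0.14) and Icos (0.049) at 8 h, and Lag3 (0.27), Tigit (0.066) and Cd28 (0.14) for 8 h against 2 h. The others were Ctla4 (-0.0051) and Lag3 (-0.33) at 2 h without baseline replicate 1, and Pdcd1 (0.094) and Lag3 (0.43) at 8 h without baseline replicate 2. The cause was not tested. Leaving out a baseline array left no residual degrees of freedom and gave values with no test. No paired analysis was possible because the groups share only 1 replicate number.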
